A study of Mus musculus with 8 samples.

Results

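Genes that copy DNA, and the G1/S genes that are switched on with them, were followed in 8 RNA-seq libraries labelled as control or as control with tranilast. The group held 49 genes, listed by symbol for origin licensing, helicase activation, replicative polymerases, the sliding clamp and its loader, Okazaki fragment maturation, dNTP supply, E2F factors and replication-coupled chromatin. All 49 were among the 22063 genes of the deposited table and all 49 passed the expression filter. The data comprised 4 control libraries and 4 tranilast libraries, all labelled wild type (WT) and liver. According to the labels and methods the material was mouse liver. Both groups shared a high-fat high-cholesterol (HFHC) diet according to the series design. The study used male C57BL/6J mice that received tranilast, an anti-allergic drug, or its carboxymethylcellulose vehicle by daily gavage in the later part of HFHC feeding. The labels do not give the dose, the age of the sequenced mice, or whether each library came from its own animal, so p-values measure only the spread between these libraries.

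The labelled tissue was checked against its markers. Of 9 hepatocyte markers, 7 had at most 3 counts in every library and 4 had none, and Alb, which encodes albumin, had 0 to 2 counts. Of 10 macrophage markers, 2 had at most 3 counts in every library. The list took 0.933% to 0.989% of the counts in control libraries and 0.909% to 0.969% in tranilast libraries, with 51267 to 68975 counts for Lyz2 (lysozyme), 29718 to 38395 for Csf1r, the receptor for macrophage colony-stimulating factor, and 664 to 801 for Adgre1, which encodes F4/80. Clec4f, which marks Kupffer cells, had 0 counts in all 8 libraries, whose totals of 12053036 to 15618787 counts put the limit that a count of 0 allows (3 counts, counting error only) at 0.192 to 0.249 CPM on the unadjusted totals. CPM are counts scaled to the library total, and all CPM below use totals adjusted by TMM factors. The hepatocyte marker counts go against the liver label, so the libraries are called by their treatment here and not by a tissue. Whether the RNA came from tissue, from isolated cells or from a culture was not tested, and the values below hold for these libraries only.

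In G1, the origin recognition complex, Cdc6 and Cdt1 load the Mcm2 to Mcm7 helicase onto DNA, and geminin later blocks Cdt1 so that no origin is licensed again. In S phase, Cdc45 and the GINS complex switch the helicase on, primase and polymerase alpha start each strand, and polymerases epsilon and delta extend it on the PCNA clamp. Most of these genes are E2F targets, held down by pocket proteins in quiescent cells and released when a cell commits to the cycle. In adult liver few cells replicate at a given moment, whereas cultured or proliferating cells express these genes at high levels. In bulk RNA, fewer cells in S phase and less RNA per cell cannot be told apart.

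The E2F motif near the start site, which the choice of the list did not use, was present in 17 of the genes and not matched in most. Promoter windows of 300 bases (250 before and 50 after the RefSeq start, build GRCm38.p6) were matched by symbol for 41 of the 49 genes, with none for Gmnn, Mcm4, Gins1, Gins2, Gins4, Prim2, Pole and Rfc2. The motif was searched on both strands as TTTCCCGC, TTTCGCGC, TTTGCCGC and TTTGGCGC, whose reverse complements are GCGGGAAA, GCGCGAAA, GCGGCAAA and GCGCCAAA, and overlapping matches were kept. Some genes had several windows, and a gene was counted once if any of its windows matched. The motif was present in 17 of the 41 genes (41.5%) and in 14 of 49 other replication pathway genes with a window (28.6%). It was present in 2.6% of the 27025 genes with a window and in 5.02% of the tested genes with one. Another cell cycle motif, the CHR (TTTGAA, or TTCAAA on the other strand), was present in 17.1% of the 41 genes, against 22.4% of the other replication pathway genes, 20.2% of all genes with a window and 14.5% of the tested genes with one. Over all 32851 single windows, the E2F motif was in 2.26% and the CHR in 17.9%. The motifs were chosen with results of these data known, and a match describes letters, not a bound site.

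The stretches just before the start site are shown for 7 of the genes whose motif lies there, with E2F motif letters in capitals. Not shown are Uhrf1 (first match at -185) and Rfc3 (-10), both called higher, and Mcm7 (-165), not called. The windows of Rrm1, Tk1 and E2f1, which changed more than most, held no match and are not shown. Cdc6, E2f7 and Gins3 were higher with tranilast, Pola1 and Mcm5 were lower, and Mcm6 and Orc1 were not called. The windows are chr11:98907991-98908150 (+) for Cdc6, chr10:110745219-110745438 (+) for E2f7, chr8:95633499-95633558 (+) for Gins3, chrX:93632156-93632305 (-) for Pola1, chr8:75109349-75109508 (+) for Mcm5, chr1:128359706-128359825 (-) for Mcm6 and chr4:108579394-108579453 (+) for Orc1, all from RefSeq on GRCm38.p6 and written 5′ to 3′ on the strand of the gene.
Cdc6: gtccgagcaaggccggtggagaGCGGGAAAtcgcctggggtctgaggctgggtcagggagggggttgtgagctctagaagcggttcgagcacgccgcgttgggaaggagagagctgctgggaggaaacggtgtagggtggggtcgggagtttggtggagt
E2f7: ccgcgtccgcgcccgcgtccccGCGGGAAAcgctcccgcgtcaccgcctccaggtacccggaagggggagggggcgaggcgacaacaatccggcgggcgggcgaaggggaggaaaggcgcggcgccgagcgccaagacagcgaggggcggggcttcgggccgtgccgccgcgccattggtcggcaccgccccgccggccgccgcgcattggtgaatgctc
Gins3: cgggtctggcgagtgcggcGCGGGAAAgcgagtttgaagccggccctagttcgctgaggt
Pola1: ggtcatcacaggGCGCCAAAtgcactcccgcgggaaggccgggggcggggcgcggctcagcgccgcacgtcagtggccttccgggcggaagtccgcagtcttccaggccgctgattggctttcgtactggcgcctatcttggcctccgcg
Mcm5: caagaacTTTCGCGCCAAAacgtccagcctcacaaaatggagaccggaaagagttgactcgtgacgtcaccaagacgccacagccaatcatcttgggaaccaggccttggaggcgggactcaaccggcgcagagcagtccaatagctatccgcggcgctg
Mcm6: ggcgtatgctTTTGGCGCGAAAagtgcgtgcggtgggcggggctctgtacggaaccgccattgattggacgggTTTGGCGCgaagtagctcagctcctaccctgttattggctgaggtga
Orc1: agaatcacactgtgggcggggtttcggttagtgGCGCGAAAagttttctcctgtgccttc
The first match began at position -138 for Cdc6, -198 for E2f7, -41 for Gins3, -138 for Pola1, -153 for Mcm5, -110 for Mcm6 and -27 for Orc1, counted from 0 at the first transcribed base. In Mcm5 and Mcm6 a match on one strand overlapped a match on the other, so that the capitals form a run of 12 letters. Called and uncalled genes both carried the motif. Of the genes with a window, it was in 8 of 16 called higher, in 3 of 9 called lower and in 6 of 16 not called.

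Tranilast was accompanied by small and divided changes across the replication genes. E2f1 and Cdc6 rose about 1.53-fold and 1.54-fold, Rrm1 and Tk1 fell to about 0.73 and 0.74 of their control level, while none of the Mcm2 to Mcm7 helicase genes, nor Pcna, changed by more than the 7.59% of Mcm4. By edgeR's quasi-likelihood test, adjusted by the Benjamini-Hochberg method over 10770 genes, 28 of the 49 genes (57.1%) were called at an adjusted p under 0.05, and the same threshold called 57.0% of all tested genes. The calls comprised 19 genes higher with tranilast (38.8%, with 28.2% of all genes called higher) and 9 genes lower (18.4%, with 28.8% called lower). The lower count fell to 4 without control 4 and to 5 without tranilast 4. Log2 fold changes ran from -0.45 for Rrm1 to 0.62 for Cdc6, with a median of 0.02 over the 49 genes and 0.01 over all genes. The median size of the log2 fold change regardless of sign was 0.11 for the replication genes and 0.21 for all genes, and 35 of 49 (71.4%) had a size under 0.2, as did 48.2% of all genes. None of the 49 reached the study's fold threshold of 1.5 on the log2 scale, which 1.11% of all genes did together with an adjusted p under 0.05. The 4 libraries of one group lay wholly above or below those of the other for 20 of the 49 genes (40.8%), 15 above and 5 below, and for 49.8% of all genes, 24.5% above and 25.3% below.

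**Figure D1:**
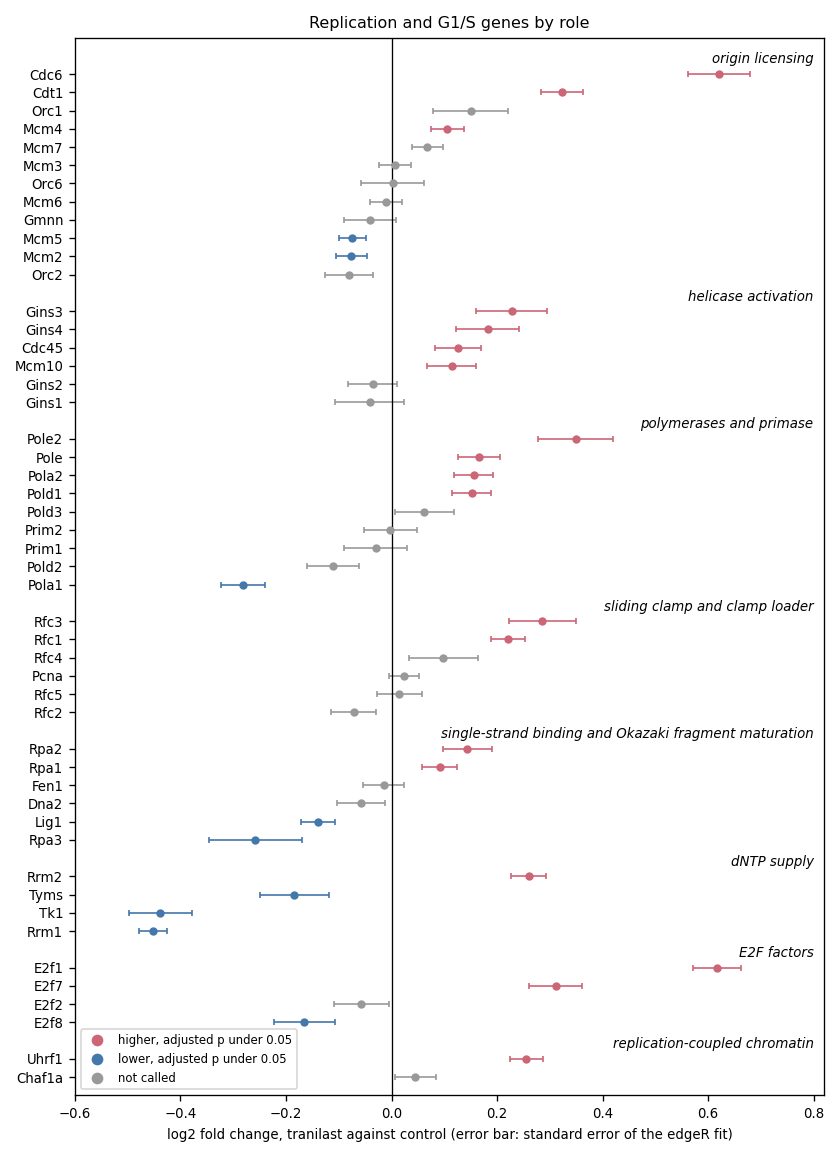
Log2 fold change of each of the 49 genes, tranilast against control, grouped by role. Points are edgeR estimates from 4 libraries per group and bars are their standard errors. Red points are called higher, blue points lower and grey points neither. Cdc6 and E2f1 lie farthest right at 0.62 and Rrm1 and Tk1 farthest left at -0.45 and -0.44.

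The direction counts depended on how the libraries were scaled. TMM factors were 0.956 to 0.965 in the control libraries and 1.037 to 1.045 in the tranilast libraries, and scaling by library size alone moved the median of all genes to 0.12 on the log2 scale. The replication genes moved with it. They were called 19 higher and 9 lower with TMM, 18 and 9 with RLE factors, 25 and 3 with upper-quartile factors, 29 and 3 with library size alone, and 25 and 3 with limma on log2 FPKM. The share of higher genes among all calls went from 49.5% with TMM to 62.6% with upper-quartile factors, 70.9% with library size alone and 70.5% with limma on log2(FPKM + 1). The median of the 49 genes minus that of all genes was 0.015 to 0.016 in the 4 edgeR scalings, 0.032 with limma on log2(FPKM + 1) and -0.013 with no filter. Without 1 library it ran from -0.004 (control 1) to 0.037 (tranilast 1), so the position of the list beside all genes had no stable sign. In all 18 alternatives, 16 of the 28 called genes kept their direction and their call. The higher ones were Cdc6, Cdt1, Mcm4, Gins3, Pola2, Pold1, Pole2, Rfc1, Rfc3, Rrm2, E2f1, E2f7 and Uhrf1, and the lower ones were Rrm1, Tk1 and Pola1. With library size alone, 10 uncalled genes were called higher, namely Chaf1a, Mcm3, Mcm7, Orc1, Pcna, Pold3, Rfc4, Rfc5 and, with their direction turned, Mcm6 and Fen1.

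**Figure D2:**
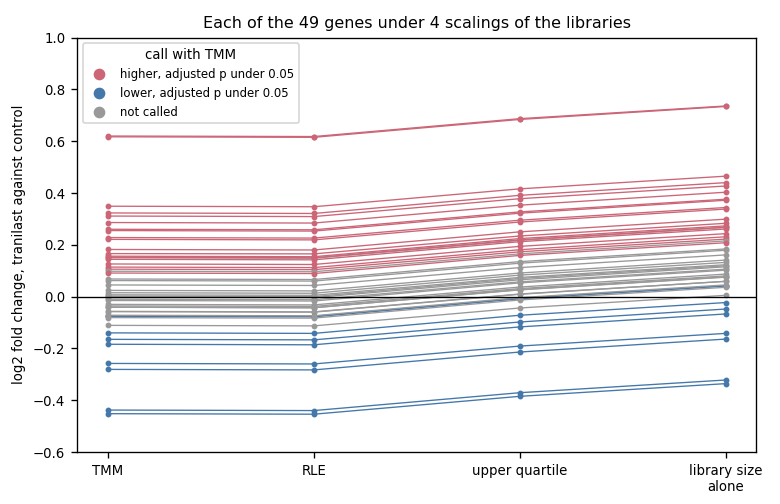
Log2 fold change of each of the 49 genes (tranilast against control) with 4 scalings of the libraries, 1 line per gene. Red, blue and grey mark genes called higher, called lower and not called with TMM. The lines run nearly parallel and move up by about 0.12 from TMM to library size alone.

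Among the 12 origin licensing genes, the largest changes were those of the 2 loading factors. Cdc6 and Cdt1, which bring the helicase to the origin, rose, and so did Mcm4, while Mcm2 and Mcm5 were lower and the remaining 7 were not called. Of the 12 genes, 25.0% were thus called higher and 16.7% lower, beside 28.2% and 28.8% of all genes. Cdc6 had 53.9, 57.3, 58.9 and 66.7 CPM in control libraries 1 to 4 and 86.8, 86.4, 96.7 and 94.0 CPM in tranilast libraries 1 to 4. Every tranilast library lay above every control library, and the log2 fold change was 0.62 ± 0.059 (SE), with an edgeR adjusted p of 6.01e-08. Cdt1 had 112, 110, 120 and 118 CPM in the control group and 138, 148, 142 and 146 CPM with tranilast, which gave a log2 fold change of 0.32 ± 0.039 (edgeR adjusted p = 1.49e-06). The Cdt1 groups did not overlap either. Its inhibitor Gmnn, geminin, averaged 61.4 ± 2.35 CPM in the control group and 59.7 ± 2.86 CPM with tranilast (SD, n = 4). Its log2 fold change was -0.04 and the 95% interval ran from -0.14 to 0.05.

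The helicase subunits were among the most abundant of the 49 genes, at 81.9 to 149.7 FPKM in the control group, where FPKM counts fragments relative to transcript length and library depth. Summed over Mcm2 to Mcm7, control libraries held 2146 to 2225 CPM and tranilast libraries 2110 to 2218 CPM, and the groups overlapped. As a share of the unadjusted counts the sums were 0.206% to 0.214% and 0.220% to 0.231%, and all tranilast libraries lay above. Mcm4 averaged 304 ± 8.64 CPM in the control group and 327 ± 10.5 CPM with tranilast (SD, n = 4), a log2 fold change of 0.11 ± 0.031 (edgeR adjusted p = 0.00799). Mcm5 had 404, 404, 400 and 412 CPM in control libraries and 381, 394, 383 and 380 CPM with tranilast. Its tranilast libraries lay below all control libraries by a small margin, and the log2 fold change was -0.07 ± 0.026 (edgeR adjusted p = 0.02). Mcm2 was 313 ± 7.50 and 297 ± 7.43 CPM (SD, n = 4), which gave a log2 fold change of -0.08 ± 0.030, an edgeR adjusted p of 0.0369 and overlapping groups. Both lower calls were lost with upper-quartile factors (-0.01 for each) and turned to 0.04 with library size alone. They also rested on single libraries: the Mcm2 call was lost without control 3, control 4, tranilast 1, tranilast 3 or tranilast 4 (adjusted p 0.0738 to 0.116) and the Mcm5 call without control 4, tranilast 1 or tranilast 4 (adjusted p 0.0615 to 0.0694).

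Of the remaining licensing genes, Mcm7 had a log2 fold change of 0.07 and an edgeR adjusted p of 0.0607, and it passed the threshold without control 4 (0.0359) or tranilast 4 (0.0448). Mcm3 and Mcm6 had log2 fold changes of 0.01 and -0.01. Mcm6 held 453.4 to 457.4 CPM in the 4 control libraries and 460.7, 460.0, 464.7 and 421.0 CPM with tranilast, so that 3 tranilast libraries lay above and 1 below every control library. Among subunits of the origin recognition complex, Orc1 had a log2 fold change of 0.15 with a 95% interval from 0.01 to 0.29 (edgeR adjusted p = 0.0827), Orc2 had -0.08 and Orc6 0.00. The Orc2 exons share 29.8% of their bases with Nif3l1 on the opposite strand, and the sources used here do not say whether reads were counted by strand. In per-length terms Orc1 was the scarcest licensing gene, with 7.01 FPKM in the control group, and Cdc6 followed at 18.2 FPKM.

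**Figure D3:**
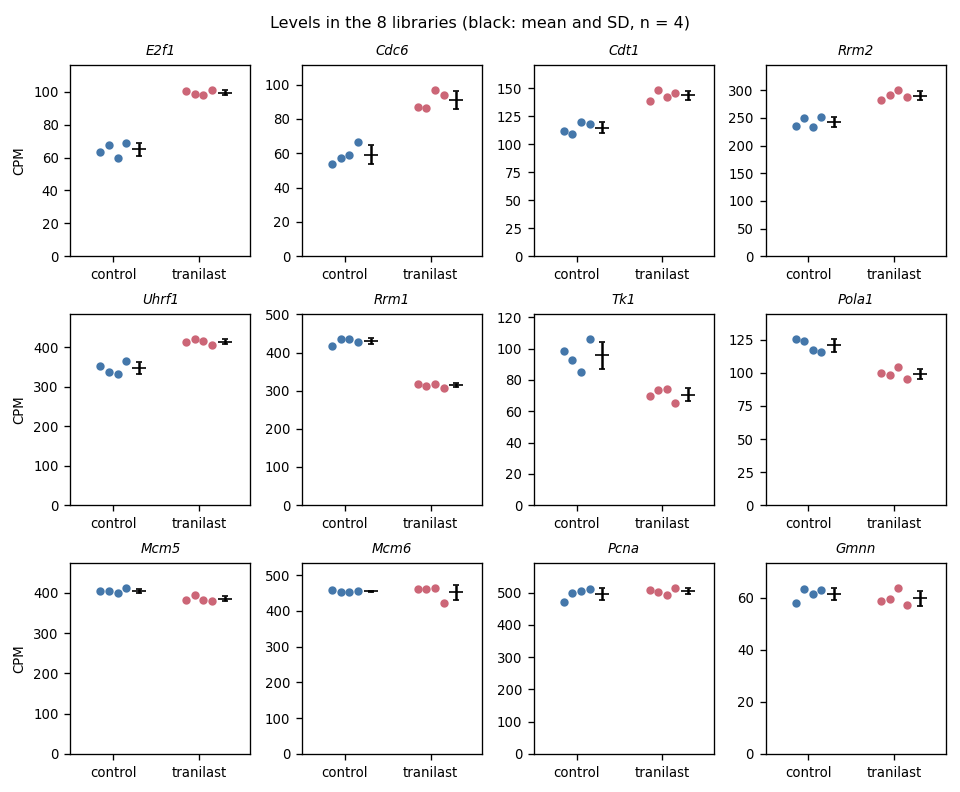
CPM of 12 of the genes in each library, with control libraries in blue and tranilast libraries in red. Black bars are the mean and SD of 4 libraries and each axis starts at 0. The groups are separate for E2f1, Cdc6, Cdt1, Rrm2, Uhrf1, Rrm1, Tk1, Pola1 and Mcm5 and overlap for Mcm6, Pcna and Gmnn.

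Among 6 helicase activation genes, 4 (66.7%) were called higher and none lower, with 28.2% of all genes called higher. Gins3, a subunit of the GINS complex, rose from 30.6 ± 2.39 to 35.9 ± 2.06 CPM (n = 4, SD), with control libraries at 28.0 to 32.7 CPM and tranilast libraries at 33.6 to 38.1 CPM. Its log2 fold change was 0.23 ± 0.068 (edgeR adjusted p = 0.00799). It was the only gene of the 6 (16.7%) whose groups did not overlap, beside 49.8% of all genes. Gins4, of the same complex, had a log2 fold change of 0.18 ± 0.060 and an adjusted p of 0.0151. Its call was lost without tranilast 1 (0.16, adjusted p = 0.0536). Cdc45, the helicase cofactor, had 0.13 ± 0.044 and an adjusted p of 0.0213, which missed the threshold without control 1, control 2, control 3 or tranilast 2 (adjusted p 0.0508 to 0.0704). Mcm10, which helps to start the assembled helicase, had 0.11 ± 0.047 (adjusted p = 0.0458). When single libraries were left out, it kept its call only without control 2 or tranilast 4, with adjusted p of 0.0581 to 0.175 without each other library. The call was also lost with RLE factors (0.11, edgeR adjusted p of 0.05 after rounding). The remaining GINS genes, Gins1 and Gins2, each had a log2 fold change of -0.04, with adjusted p of 0.619 and 0.53. Of the Gins2 exon bases, 67.3% are shared with Gse1 on the opposite strand.

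The polymerase genes split within one complex. Pola1, the catalytic subunit of polymerase alpha, fell while its partner Pola2 rose, and the primase subunits Prim1 and Prim2, which belong to the same complex, had log2 fold changes of -0.03 and 0.00. Pola1 had 126, 124, 117 and 116 CPM in control libraries and 99.8, 98.2, 105 and 95.3 CPM with tranilast. All tranilast libraries lay below all control libraries, with a log2 fold change of -0.28 ± 0.042 (edgeR adjusted p = 1.53e-05). Pola2 had 93.3, 92.5, 95.9 and 95.7 CPM in control libraries and 103, 107, 106 and 104 CPM with tranilast, so that the groups were separate in the other direction (log2 fold change 0.16 ± 0.037, adjusted p = 0.00145). Pole, the catalytic subunit of polymerase epsilon, rose by 0.17 ± 0.039 on the log2 scale (adjusted p = 0.00143), a call lost with limma on log2(FPKM + 1), where the adjusted p was 0.0713. Its accessory subunit Pole2 had the largest change of the 9 polymerase and primase genes in the list. It had 28.7, 31.6, 26.2 and 33.6 CPM in control libraries and 39.4, 39.4, 37.5 and 36.4 CPM with tranilast, a log2 fold change of 0.35 ± 0.072 (adjusted p = 0.000444). Pole2 shares 8.5% of its exon bases with Gm49384 on the same strand. Of the polymerase delta genes, the catalytic subunit Pold1 rose from 141 ± 5.40 to 157 ± 4.64 CPM (SD, n = 4), or by 0.15 on the log2 scale. Pold2 had -0.11 (adjusted p = 0.0662) and Pold3 0.06 (adjusted p = 0.363), and Pold2 passed the threshold without control 1 (adjusted p = 0.0382) or control 2 (0.0483).

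Of the 6 genes of the sliding clamp and its loader, 2 (33.3%) were called, beside 57.0% of all genes. Pcna, the clamp that tethers polymerases to DNA, was the most abundant of the 49 genes per length, with 314 ± 11.0 FPKM in the control group (SD, n = 4). It had 471, 499, 505 and 513 CPM in control libraries and 508, 504, 492 and 516 CPM with tranilast, with a log2 fold change of 0.02 whose 95% interval ran from -0.03 to 0.08. Of the 5 loader genes, Rfc1, the large subunit, and Rfc3 rose. Rfc1 had 166 to 176 CPM in the control group and 195 to 202 CPM with tranilast, and Rfc3 had 34.1 to 39.0 and 41.1 to 49.9 CPM. Both had separate groups, with log2 fold changes of 0.22 ± 0.032 (adjusted p = 1.36e-05) and 0.29 ± 0.064 (adjusted p = 0.000926). Rfc2, Rfc4 and Rfc5 had log2 fold changes of -0.07, 0.10 and 0.02 and, like Pcna, were not called. With library size alone, Pcna, Rfc4 and Rfc5 were called higher (edgeR adjusted p of 0.000374, 0.00799 and 0.0115).

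The subunits of replication protein A, the trimer that coats single-stranded DNA, were not all called in the same direction. The only lower call, that of Rpa3, kept its direction but was lost in 7 of 18 alternatives. Rpa1 and Rpa2, the large and middle subunits, were called higher, with log2 fold changes of 0.09 ± 0.034 (adjusted p = 0.0266) and 0.14 ± 0.047 (adjusted p = 0.0141). Rpa3, the smallest subunit, was called lower, from 19.2 ± 1.58 to 16.0 ± 1.19 CPM (SD, n = 4), which is -0.26 ± 0.089 on the log2 scale (adjusted p = 0.0189). Rpa2 had separate groups, whereas the groups of Rpa1 and Rpa3 overlapped. The Rpa1 call was lost without control 1, control 3, tranilast 2 or tranilast 3 (adjusted p 0.0573 to 0.0942), that of Rpa2 without control 3 (0.0629), and that of Rpa3 without control 2, control 4 or tranilast 4 (0.0503 to 0.0634), with upper-quartile factors (0.0739) and with library size alone (0.175).

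Lig1, the ligase that seals Okazaki fragments, had 236, 231, 241 and 232 CPM in control libraries and 213, 211, 223 and 206 CPM with tranilast. The tranilast libraries all lay lower, with a log2 fold change of -0.14 ± 0.032 (adjusted p = 0.00123), but the call was lost with library size alone (-0.02) and the direction turned with limma on log2 FPKM (0.03). The flap nucleases Fen1 and Dna2 had log2 fold changes of -0.02 and -0.06 and were not called.

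All 4 genes of dNTP supply were called, 1 higher and 3 lower. Of all genes, 57.0% were called, 28.2% higher and 28.8% lower. Rrm1 and Rrm2, which encode the large and small subunits of ribonucleotide reductase, moved in opposite directions. Rrm1 had 419, 436, 435 and 429 CPM in control libraries and 318, 312, 318 and 307 CPM with tranilast. The lowest control library lay well above the highest tranilast library, with a log2 fold change of -0.45 ± 0.027 (edgeR adjusted p = 9.41e-11). Rrm2 had 236, 249, 234 and 251 CPM in control libraries and 282, 292, 300.2 and 288 CPM with tranilast, separate in the other direction, with a log2 fold change of 0.26 ± 0.033 (adjusted p = 2.34e-06). Tk1, thymidine kinase of the salvage route, had 98.6, 92.6, 85.3 and 106 CPM in control libraries and 69.8, 73.6, 74.1 and 65.1 CPM with tranilast (log2 fold change -0.44 ± 0.060, adjusted p = 6.11e-06). The Tk1 groups were separate as well, although its control libraries spread more widely than those of Rrm1. Tyms, which makes thymidylate anew, was called lower, with a log2 fold change of -0.18 ± 0.065 (adjusted p = 0.0211) and overlapping groups. The Tyms call was lost with upper-quartile factors (adjusted p = 0.137), with library size alone (0.374), with limma on log2(FPKM + 1) (0.421) and without control 2, control 4 or tranilast 3 (0.061 to 0.081).

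Ratios of 2 genes within a library do not depend on how libraries are scaled, and 3 were tested by an exact two-sided permutation test, adjusted over the 3. The FPKM of Rrm2 relative to Rrm1 was 1.02, 1.01, 0.999 and 1.07 in control libraries 1 to 4 and 1.62, 1.71, 1.73 and 1.72 in tranilast libraries 1 to 4. The subunit messages were thus near parity in the control group and 1.66-fold further toward Rrm2 with tranilast, a log2 difference of 0.73 (exact p = 0.0286, adjusted p = 0.0429). Since all tranilast libraries lay above control for Rrm2 and below it for Rrm1, separate ratios followed from the single genes. This p is therefore no further support. Cdt1 relative to its inhibitor Gmnn was 0.837, 0.755, 0.847 and 0.827 in control libraries and 1.04, 1.10, 0.971 and 1.12 with tranilast, again with separate groups and a log2 difference of 0.37 (exact p = 0.0286, adjusted p = 0.0429). Cdt1 alone was already separate, at 109.5 to 119.9 and 138.3 to 148.4 CPM. Gmnn varied little, at 58.1 to 63.1 CPM in control libraries and 57.1 to 63.8 CPM with tranilast. The separation of this ratio thus followed from Cdt1, and its p is no further support either. The exact test of 4 against 4 cannot give a smaller p than 0.0286. Rrm2b, the p53-inducible alternative small subunit, stood at 0.0387 to 0.0508 of Rrm2 in control libraries and 0.0416 to 0.0517 with tranilast, and these groups overlapped (exact p = 0.457). Rrm2b itself, at 20.4 ± 0.748 CPM in the control group and 27.3 ± 3.53 CPM with tranilast (SD, n = 4), was called higher with a log2 fold change of 0.43 ± 0.087 (edgeR adjusted p = 0.000399).

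**Figure D4:**
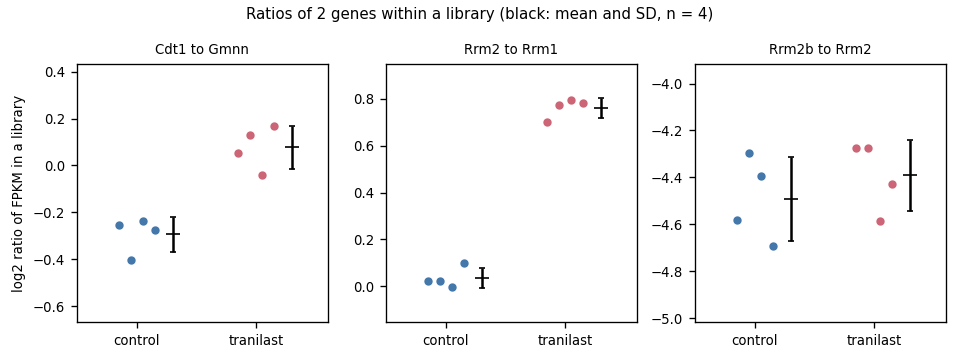
Log2 ratio of the FPKM of 2 genes in each library for Cdt1 to Gmnn, Rrm2 to Rrm1 and Rrm2b to Rrm2, with the mean and SD of 4 libraries in black. The tranilast libraries lie above the control libraries for the first pair of ratios (mean log2 ratios of -0.29 and 0.08, and of 0.04 and 0.76) and overlap them for the last.

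Of the 4 E2F factors, 2 were called higher, 1 lower and 1 was not called. Among all genes, 28.2% were called higher and 28.8% lower. The only lower call, that of E2f8, was lost in 8 of 18 alternatives, so the split in direction among the calls rests on an unstable call. E2f1, an activator that switches on S phase genes, had 63.6, 67.6, 59.7 and 68.6 CPM in control libraries and 100.1, 98.7, 97.9 and 100.9 CPM with tranilast. The tranilast libraries lay close together and all above the control libraries, with a log2 fold change of 0.62 ± 0.046 (edgeR adjusted p = 2.52e-09). E2f7, an atypical E2F that represses S phase genes, rose from 45.7 ± 1.30 to 56.7 ± 2.71 CPM (SD, n = 4), with separate groups and a log2 fold change of 0.31 ± 0.050 (adjusted p = 3.66e-05). The related repressor E2f8 went the other way, with a log2 fold change of -0.16 ± 0.058 (adjusted p = 0.0209) and overlapping groups. Its call was lost with upper-quartile factors (adjusted p = 0.155), with library size alone (0.493), with limma on log2(FPKM + 1) (0.588) and without control 1, control 4, tranilast 1 or tranilast 4 (0.0612 to 0.0924). E2f2, a second activator, had a log2 fold change of -0.06 (adjusted p = 0.369). Per length, E2f1 was at 22.8 FPKM in the control group, E2f2 at 9.89, E2f7 at 9.03 and E2f8 at 30.5.

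Uhrf1, which carries DNA methylation through replication, had 353, 339, 331 and 365 CPM in control libraries and 413, 421, 417 and 405 CPM with tranilast. The groups were separate, with a log2 fold change of 0.26 ± 0.031 (adjusted p = 1.59e-06). Chaf1a, the large subunit of the chromatin assembly factor, had a log2 fold change of 0.04 (95% interval -0.03 to 0.12) and was not called. The exons of Chaf1a share 52.5% of their bases with Ubxn6 on the opposite strand.

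Another 61 genes of the replication pathway that were not in the list were read from the same fit. Of these, 25 (41.0%) were called higher, 24 (39.3%) lower and 12 not called, beside 28.2% and 28.8% of all genes, with a median log2 fold change of 0.00. The 8 called genes with the largest changes included 5 higher and 3 lower genes. Ccna2, the cyclin A of S and G2 phase, had 303 to 331 CPM in the control group and 130.0 to 139.6 CPM with tranilast (log2 fold change -1.25 ± 0.035). Top2a, the topoisomerase that untangles copied DNA, had -0.91 ± 0.024, and Dbf4, the activator of the Cdc7 kinase, had -0.65 ± 0.049. The pocket proteins Rbl2 and Rb1, which hold E2F targets down, rose by 0.77 ± 0.053 and 0.64 ± 0.064, and Tfdp2, an E2F partner, by 0.72 ± 0.061. Their relatives, named after their values were seen, went the other way: the pocket protein Rbl1 had -0.15 (edgeR adjusted p = 0.000634), a call lost with library size alone (-0.03, adjusted p = 0.432) and with limma on log2(FPKM + 1) (-0.03, 0.488), and the E2F partner Tfdp1 had -0.25 (adjusted p = 1.07e-06). Donson, a helicase assembly factor, rose by 0.48 ± 0.053 and Ccne2, a cyclin E of the G1/S transition, by 0.43 ± 0.042. The edgeR adjusted p of the 8 genes was at most 4.61e-07, and none had overlapping groups. Both go with their choice by size of change in the same fit and are not separate support. Groups did not overlap for 67.2% of the 61 genes and for 49.8% of all genes. With library size alone the 24 lower genes became 12.

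For comparison, a list of 24 mitosis genes was read in the same way. All 24 were called lower with tranilast, beside 28.8% of all genes. Their median log2 fold change was -1.31, and 9 passed the fold threshold, as did 1.11% of all genes. Their summed level was 3708 to 3865 CPM in control libraries and 1519 to 1608 CPM in tranilast libraries, whereas the 49 replication genes summed to 6920 to 7171 and 7003 to 7242 CPM, which overlapped. As a share of the unadjusted counts the 49 genes held 0.663% to 0.690% and 0.732% to 0.754%, which did not overlap, and the mitosis genes 0.355% to 0.370% and 0.157% to 0.167%. The motifs of the windows differed between the lists too. The CHR motif was in 14 of 20 mitosis genes with a window (70.0%) and the E2F motif in 1 of them (5.0%), where the replication genes had 17.1% and 41.5%. The mitosis list was chosen with its direction known, so its count is a description beside that of the replication genes. Within the deposited KEGG annotation, the DNA replication pathway held 36 tested genes, 27 of them in the list of 49. Of the 36, 12 (33.3%) were higher and 8 (22.2%) lower, beside 28.2% and 28.8% of all genes. Their median log2 fold change was 0.01.

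**Figure D5:**
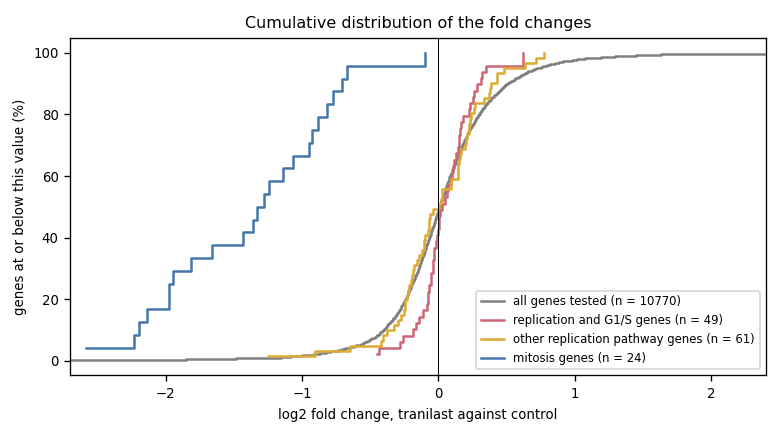
Cumulative share of genes (%) by log2 fold change, tranilast against control, for all 10770 genes tested (grey), the 49 replication and G1/S genes (red), 61 other replication pathway genes (yellow) and 24 mitosis genes (blue). The red curve is steeper than the grey one and crosses it at about 0.1, and the blue curve lies wholly to the left of 0 with a median of -1.31.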

How the data were processed

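RNA-seq of 4 control and 4 tranilast libraries was analysed. For each gene, the authors deposited an estimated count, which was rounded to a whole number here, and an FPKM value, scaled by the authors for the length of the transcript and for depth. The methods name TRIzol extraction and paired-end poly-A TruSeq libraries. The platform is given as HiSeq X-ten in the methods and as NovaSeq in the labels, and the aligner, counting tool and genome build are not given in the sources used here. Coordinates are those of GENCODE M21 (GRCm38), matched by Ensembl identifier for 21973 of 22063 genes.

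Genes were filtered with filterByExpr, scaled by TMM and compared without covariates in edgeR 4.0.16 by the quasi-likelihood test, with Benjamini-Hochberg adjustment over 10770 genes and a threshold of 0.05. Library totals were 14585153 to 15618787 in the control group and 12053036 to 14679386 with tranilast. The biological coefficient of variation was 5.09%. CPM are counts on TMM-scaled totals. Alternatives were RLE, upper-quartile and library-size scaling, DESeq2 1.42.0, limma-voom and limma trend on log2(FPKM + 1) or log2(FPKM + 0.1) (limma 3.58.1), a filter of at least 10 counts in every library or none, a replicate block and leaving out each library. The code was tested on simulated data. R 4.3.3, Python 3.11.15, pandas 2.3.3, numpy 2.4.6 and scipy 1.17.1 were used.

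The members and lists were chosen with earlier results of these data known. All 49 members were described, with the 8 called genes of largest change among the other pathway genes and the genes of 3 ratios; from the mitosis and marker lists only counts were given, apart from Alb, Lyz2, Csf1r, Adgre1 and Clec4f. No 2 libraries held identical values.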

Additional observations from a re-analysis of the deposited data

Results flagged for a closer look

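In 3 of the 104 groups of 4 libraries that were checked, 1 library stood apart from the other 3 by Dixon's criterion, which chance meets in about 1 group in 20. All 3 were helicase genes in tranilast libraries. Mcm3 had 365.7 CPM in tranilast 4, where the other tranilast libraries had 385.9 to 387.9 CPM. Mcm6 had 421.0 CPM in the same library, and 460.0 to 464.7 CPM in the others. Mcm5 had 393.9 CPM in tranilast 2, and 380.4 to 382.6 CPM in the others. Without tranilast 4 the log2 fold change of Mcm6 was 0.027 (edgeR adjusted p = 0.406).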

How the results depend on the processing

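Of 882 values (49 genes under 18 alternatives), 725 kept their direction and their side of the threshold, 54 lost the call, 30 gained it and 73 changed direction. DESeq2, limma-voom and both expression filters kept 19 higher and 9 lower calls, and no gene passed the fold threshold under any alternative. The lower count was 3 with upper-quartile factors, 3 with library size alone and 3 with limma on log2(FPKM + 1) or log2(FPKM + 0.1), and the higher count was 29 with library size alone. The median log2 fold change of the 49 genes was then 0.091, 0.141, 0.135 and 0.140 in that order, against 0.024 with TMM. The 24 lower genes of the wider pathway became 12 with library size alone and 11 with limma on log2 FPKM, with 1 or 0.1 added. Upper-quartile factors and library size alone change only the scaling, whereas limma on log2 FPKM changes the scaling, the measure and the test together. Leaving out 1 library at a time gave 4 to 9 lower and 15 to 20 higher calls, medians of 0.004 to 0.046, and log2 ratio differences of 0.334 to 0.411 for Cdt1 to Gmnn and 0.715 to 0.748 for Rrm2 to Rrm1, whose exact p cannot go below 0.0571 with 4 libraries against 3.

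Directions turned, on the log2 scale, as follows. With library size alone: 0.036 (Orc2), 0.075 (Gmnn), 0.041 (Mcm2), 0.042 (Mcm5), 0.106 (Mcm6), 0.076 (Gins1), 0.080 (Gins2), 0.087 (Prim1), 0.115 (Prim2), 0.005 (Pold2), 0.045 (Rfc2), 0.102 (Fen1), 0.059 (Dna2) and 0.059 (E2f2). With limma on log2(FPKM + 1), followed by log2(FPKM + 0.1): 0.065 and 0.067 (Orc2), 0.067 and 0.068 (Gmnn), 0.040 and 0.041 (Mcm2), 0.039 and 0.040 (Mcm5), 0.103 and 0.104 (Mcm6), 0.074 and 0.077 (Gins1), 0.077 and 0.081 (Gins2), 0.088 and 0.090 (Prim1), 0.111 and 0.114 (Prim2), 0.005 in both (Pold2), 0.039 and 0.041 (Rfc2), 0.101 and 0.102 (Fen1), 0.029 in both (Lig1), 0.061 and 0.063 (Dna2), 0.055 and 0.060 (E2f2). With upper-quartile factors: 0.026 (Gmnn), 0.057 (Mcm6), 0.027 (Gins1), 0.031 (Gins2), 0.037 (Prim1), 0.065 (Prim2), 0.053 (Fen1), 0.009 (Dna2) and 0.010 (E2f2). Orc6 was at -0.001 with limma-voom and with no filter. Without single libraries, values crossed 0 for Orc6 (-0.031 to 0.046), Mcm3 (-0.013 to 0.031), Pcna (-0.003 to 0.038), Prim2 (-0.034 to 0.024), Prim1 (-0.076 to 0.017), Mcm6 (-0.022 to 0.027), Fen1 (-0.042 to 0.018) and Rfc5 (-0.016 to 0.032). The cause was not tested for single genes.

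The replicate numbers did not pair the libraries: deviations from the group means of same-numbered libraries correlated at -0.0566, -0.0414, 0.00687 and 0.104. With the replicate number as a block, 19 genes were higher and 8 lower, with Mcm2 at an adjusted p of 0.0602, and 6009 genes were called in all. The blocked ratio differences stayed at 0.371 and 0.727, with an exact sign-flip p of 0.125, the smallest that 4 pairs can give. The least abundant of the 49 genes had at least 196 counts in every library, and detection was not limited by depth.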
